A study of Mus musculus with 9 samples.

Results

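The genes described here are 43 genes of DNA replication and S phase, chosen by gene symbol from a list of replication factors, with no threshold on their values. The list was drawn up with earlier results of these data known, so the counts below describe these genes and are no independent test. All 43 were found among the 45535 rows of the deposited table that carry a gene symbol. They were compared in CD103+ dendritic cells (DCs) taken from mouse lung and sequenced either straight after isolation or after 18 h in culture. All samples came from mice of the genotype C57/BL6j given bleomycin, a drug that injures the lung and leads to fibrosis, for 7 days. Lungs were digested with collagenase and CD103+ DCs were collected with magnetic beads. The 5 samples before culture were harvested directly, and the 4 samples after culture had been kept ex vivo in RPMI with added serum (FBS) and pen/strep antibiotics. Bleomycin, digestion and bead isolation were therefore common to both groups. Nothing in the labels tells if 1 mouse or a pool of mice lay behind a sample, so p-values measure only the spread between these samples, which may be technical. The extraction text speaks of RNA from total lung, while the other labels name isolated CD103+ DCs.

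Before a cell divides, it copies its genome once. In G1 phase the origin recognition complex, Cdc6 and Cdt1 load the ring-shaped MCM2-7 helicase onto DNA, and in S phase Cdc45 and the GINS complex turn each ring into an active helicase. Polymerase alpha-primase then lays down primers, polymerases epsilon and delta extend the leading and lagging strands with the clamp PCNA, and Fen1 and Lig1 join the lagging-strand fragments. Many of these genes are transcribed at the G1/S border by E2F transcription factors, which the retinoblastoma family of proteins restrains. Conventional DCs arise from dividing precursors, and lung CD103+ DCs are known to keep some capacity to divide.

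Most of the replication genes were lower after culture. Each value is a normalized read count, the number of reads of a gene after the authors' correction for library size, and changes are given as log2 fold changes on log2(normalized count + 1), after minus before culture. All 43 genes had a mean of at least 10 and were tested with limma. At an adjusted p under 0.05, 40 of the 43 passed in one direction or the other, beside 68.8% of the 18202 genes tested. Of the 43, 36 fell, beside 34.6% of all tested genes. Rises were called for 4 genes (Gins3, Pold3, Tk1 and Orc1), beside 34.2% of all tested genes. The other 3 (Rfc3, Rfc4 and Ccne2) did not pass. The median log2 fold change of the 43 genes was -1.22, beside 0.0065 over all tested genes. At least a 2-fold fall (log2 fold change of -1 or lower) was called for 28 genes, beside 18.6% of tested genes, and at least a 4-fold fall for 3 (Rrm2, Cdc45 and E2f2), beside 8.19%. In 36 genes every sample after culture lay below every sample before culture, beside 28.6% of tested genes, and in 2 (Gins3 and Pold3) every sample after culture lay above, beside 28.7%. The changes ran from -3.02 for Rrm2 to 3.24 for Gins3.

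**Figure D1:**
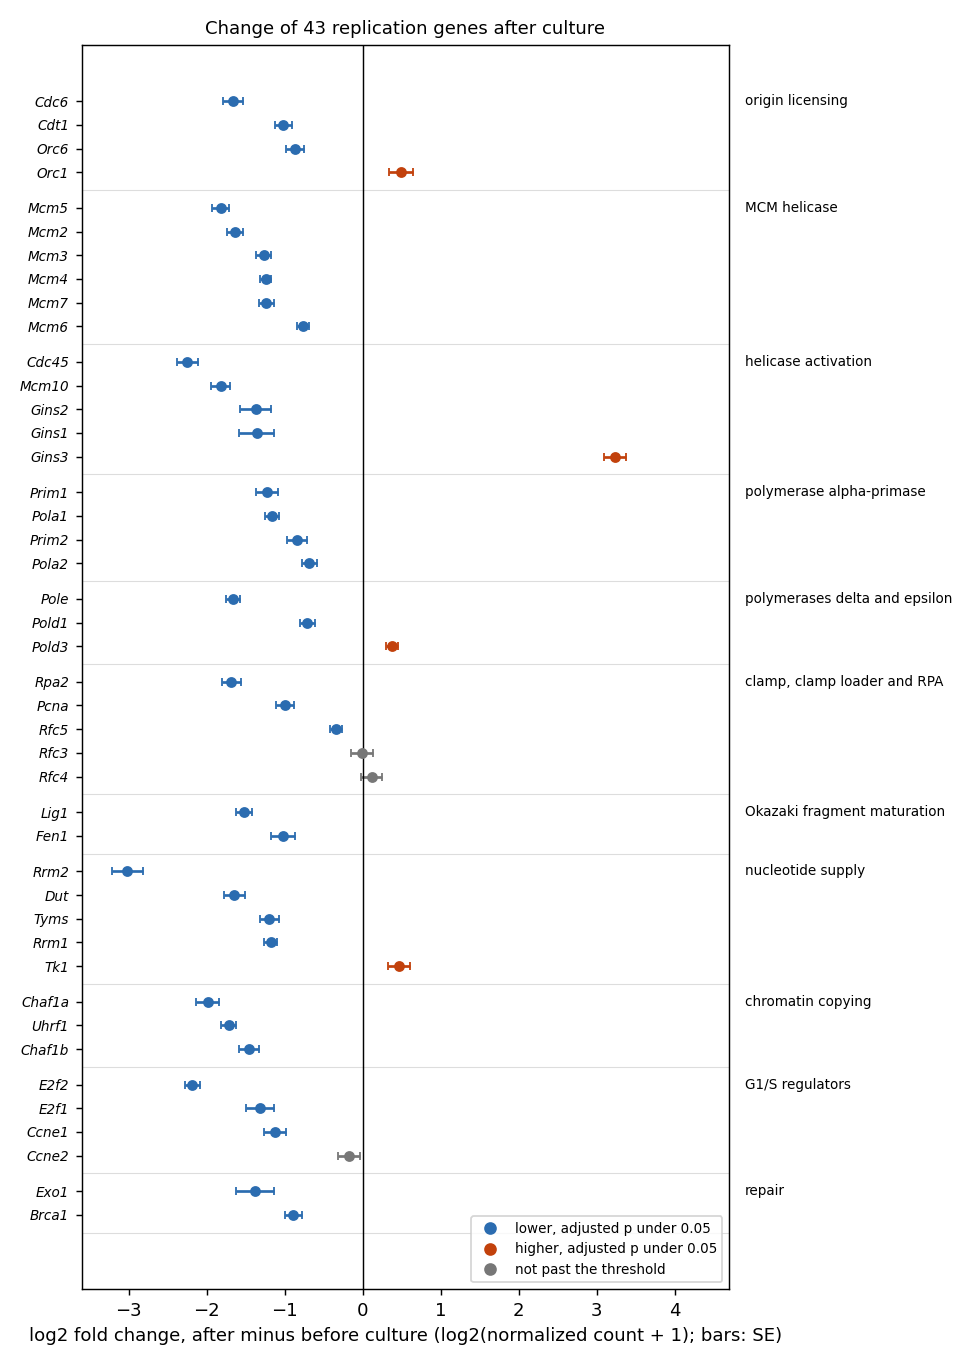
Log2 fold change (after minus before culture, x axis, log2(normalized count + 1)) of each of the 43 genes, grouped by role, with bars for the standard error. Falls fill every role, the largest being Rrm2 at -3.02, and Gins3 at 3.24 stands apart on the right.

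Replication transcripts were lower as a whole. The summed normalized count of the 43 genes was 36104 ± 1328 (SD, n = 5) before culture, with single samples between 33961 and 37423. After culture it was 19062 ± 566 (SD, n = 4), with samples between 18479 and 19743, which is 1.89-fold lower. Without the 3 genes with the highest counts (Pcna, Tk1 and Mcm4) the sum was 2.10-fold lower. The cultured samples did not all sit at the same level. After replicate 2 was the highest of its group for 26 of the 43 genes, and after replicate 3 was the lowest for 23. Before replicate 4 was the lowest of its group for 18 genes. In bulk samples, fewer cells of a type and less RNA per cell cannot be told apart.

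Uncultured samples had 14.7 to 28.8 M reads in rows with a gene symbol and cultured samples 26.0 to 35.3 M, with after replicate 2 the deepest and after replicate 3 the shallowest cultured sample. Of 10 marker genes of type 1 conventional DCs, the class that carries CD103 in the lung, 7 fell and 3 rose, and their summed count was 121489 to 149327 before and 29633 to 34492 after culture. Wdfy4 had the highest counts of the 10 and weighed most in that sum, with 75717 ± 6275 before and 4761 ± 811 after (SD). The 3 that rose were Flt3 (0.67), Batf3 (0.56) and Zbtb46 (0.26, groups overlapping), given as log2 fold changes. The CD103 gene Itgae itself was 18138 ± 1537 before (SD, n = 5) and 1727 ± 335 after (SD, n = 4). Marker sums of other cells also moved: all 5 neutrophil markers fell (sum 11592 to 20018 before, 769.8 to 1491 after), as did all 5 endothelial (20742 to 30021 before, 3162 to 4102 after), all 5 fibroblast (15551 to 28280 before, 2170 to 4386 after), all 5 epithelial (22955 to 36902 before, 4004 to 7287 after) and all 5 NK cell markers (1259 to 2630 before, 255 to 405 after). Of 6 monocyte and interstitial macrophage markers 4 fell (21694 to 37631 before, 6880 to 16854 after), and of 5 alveolar macrophage markers 3 fell and 1 rose (16484 to 24363 before, 8014 to 11099 after). The sums of T cell markers (8 genes, 2 fell and 1 rose, 5694 to 6472 before, 5246 to 6974 after), B cell markers (5 genes, 1 fell and 1 rose, 2390 to 4460 before, 2435 to 3350 after) and erythroid markers (5 genes, of which 3 were tested and fell, 3587 to 11825 before, 711 to 3667 after) overlapped between the groups. No marker was at 0 in every sample. The part of these cells and of depth in the changes of the replication genes was not tested.

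The sequences below show what the promoters of 6 of these genes hold, since E2F factors are known to bind short words such as TTCCCGC, the variant TTCGCGC, the variant TTGCCGC and the variant TTGGCGC. The 6 were taken for their place in the results: the largest fall (Rrm2), the largest and the smallest fall within the MCM ring (Mcm5 and Mcm6), and 3 of the genes that rose (Gins3, Orc1 and Tk1). Each is the 250 bases before the start in RefSeq's promoter table for build GRCm38.p6, written 5′ to 3′ on the gene's strand, with every such word on either strand in capitals. They lie at chr12:24708004-24708253 (plus strand) for Rrm2, chr8:75109259-75109508 (plus) for Mcm5, chr1:128359706-128359955 (minus) for Mcm6, chr8:95633309-95633558 (plus) for Gins3, chr4:108579204-108579453 (plus) for Orc1 and chr11:117826015-117826264 (minus) for Tk1.
Rrm2: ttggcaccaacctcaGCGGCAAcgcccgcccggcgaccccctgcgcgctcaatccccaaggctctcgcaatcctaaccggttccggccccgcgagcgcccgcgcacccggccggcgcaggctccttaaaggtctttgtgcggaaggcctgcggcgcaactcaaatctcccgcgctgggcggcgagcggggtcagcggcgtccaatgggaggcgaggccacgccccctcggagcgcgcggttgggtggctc
Mcm5: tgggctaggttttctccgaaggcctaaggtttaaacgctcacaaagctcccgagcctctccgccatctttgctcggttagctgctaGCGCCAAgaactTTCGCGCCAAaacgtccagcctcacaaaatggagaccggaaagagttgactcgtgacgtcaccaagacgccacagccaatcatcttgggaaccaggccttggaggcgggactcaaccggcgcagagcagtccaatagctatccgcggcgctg
Mcm6: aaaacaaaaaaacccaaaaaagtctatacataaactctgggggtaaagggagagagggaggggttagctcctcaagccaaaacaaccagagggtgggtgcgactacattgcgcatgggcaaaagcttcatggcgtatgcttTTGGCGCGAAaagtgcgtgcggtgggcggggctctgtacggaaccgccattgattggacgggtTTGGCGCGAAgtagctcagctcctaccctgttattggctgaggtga
Gins3: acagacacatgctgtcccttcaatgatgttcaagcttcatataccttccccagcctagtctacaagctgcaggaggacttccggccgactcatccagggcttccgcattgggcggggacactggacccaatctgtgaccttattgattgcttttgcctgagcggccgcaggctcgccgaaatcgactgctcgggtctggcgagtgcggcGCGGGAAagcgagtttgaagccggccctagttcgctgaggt
Orc1: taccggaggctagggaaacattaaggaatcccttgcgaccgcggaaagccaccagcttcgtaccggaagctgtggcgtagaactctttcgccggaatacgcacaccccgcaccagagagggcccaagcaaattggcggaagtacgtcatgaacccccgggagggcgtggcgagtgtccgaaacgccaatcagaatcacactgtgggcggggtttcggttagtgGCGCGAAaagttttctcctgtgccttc
Tk1: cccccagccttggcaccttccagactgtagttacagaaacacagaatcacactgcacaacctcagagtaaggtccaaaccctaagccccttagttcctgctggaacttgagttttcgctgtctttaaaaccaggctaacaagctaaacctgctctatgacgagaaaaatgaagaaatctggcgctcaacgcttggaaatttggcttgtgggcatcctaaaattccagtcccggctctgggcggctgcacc

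The Rrm2 window holds 1 word, the Mcm5 window 3 and the Mcm6 window 4, and in Mcm5 and Mcm6 words overlap each other. Gins3 and Orc1 rose and hold 1 word each, 41 and 27 bases before the RefSeq start, while Tk1 rose and holds none in these letters. In the gene annotation GENCODE M21, Gins3 starts at chr8:95633453 and Orc1 at chr4:108579423, so both words lie inside the gene there. The Rrm2 and Tk1 windows also reach past the GENCODE start. RefSeq's table gave 42 promoters for 36 of the 43 genes. Over the 300 bases that also reach past the start, an E2F word was found in 27 of the 42 promoters (64.3%), beside 3145 of 32851 promoters in the whole table (9.57%). Over the 250 bases before the start the shares were 42.9% and 7.89%. The word CCAAT, on either strand, was in 57.1% of these promoters and 37.4% of all, and the word TTTGAA, the cell cycle homology region of many G2 and mitosis genes, in 11.9% and 17.9%, both over 300 bases. Among the 24 genes with an E2F word 19 fell, 3 rose and 2 did not pass, with a median log2 fold change of -1.20. Among the 12 without one 11 fell and 1 (Tk1) rose, with a median of -1.16. A matching word is a description of these letters, not a binding site or a cause, and a window without one says nothing of the factor.

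Of the 4 origin licensing genes, Cdc6, Cdt1 and Orc6 fell and Orc1 rose. Cdc6, the ATPase that helps to load the helicase, had normalized counts of 299, 281, 256, 277 and 254 in before replicates 1 to 5 and 83.0, 104, 89.2 and 69.9 in after replicates 1 to 4. The groups were far apart, and the level fell 3.16-fold (a change of -1.66 on the log2 scale, SE 0.134, limma adjusted p = 1.26e-07). Cdt1, its partner in loading, was 1053, 1043, 977, 819 and 1159.9 before and 506, 556, 448 and 483 after culture. Its fall was 2.03-fold (-1.01, adjusted p = 1.51e-06), with no overlap, and was -0.45 in a fit corrected for each transcript's GC share and length (the GC/length correction). Orc6, the smallest subunit of the origin recognition complex, went from 360.2 ± 30.9 (SD, n = 5) to 198 ± 27.2 (SD, n = 4), 1.82-fold lower (-0.87, adjusted p = 1.82e-05).

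Orc1, the largest subunit of the same complex and a protein known to be unloaded and degraded in S phase in mammalian cells, went the other way. Its counts were 162, 146, 123, 164 and 104 before and 209, 164, 214 and 195 after culture. After replicate 2 lay just below the top of the uncultured range, so the groups overlapped. The rise was 1.40-fold (0.49, SE 0.158, adjusted p = 0.0132). Of the exon bases of Orc1, 10.8% are shared with the antisense transcript Gm12743, which itself went from 32.6 to 100.1. Whether the authors' counting used strand is not given in the sources used here, so reads of the pair may be mixed.

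All 6 subunits of the MCM2-7 ring fell, between 1.69-fold and 3.51-fold, and no sample of one group reached the other. Mcm5 fell most: it was 1736, 1744, 1722, 1476 and 1595 before and 479.6, 559.5, 381 and 465 after culture (-1.82, SE 0.104, adjusted p = 4.19e-09). Mcm2 went from 1438 ± 171 to 462 ± 39.2 (SD, n = 5 and n = 4), 3.12-fold lower. Mcm3 (2285 ± 107 to 957 ± 152), Mcm4 (2411 ± 78.6 to 1022 ± 81.2) and Mcm7 (1529 ± 118 to 652 ± 82.1) fell by similar factors of 2.39, 2.36 and 2.34. Mcm6 fell least: it was 1906, 1919, 1855, 1875 and 1795 before and 999, 1210.0, 1038 and 1187 after culture (-0.76, SE 0.0756, adjusted p = 1.06e-06). The 95% intervals of Mcm5 (-2.04 to -1.60) and Mcm6 (-0.92 to -0.60) do not meet, though their difference itself was not tested. In Mcm7 26.0% of 50-base windows also occur in another gene, so its reads may be split.

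Helicase activation genes held both a 4.78-fold fall and the largest rise of all 43. Cdc45, a part of the active helicase, was 312, 265, 321, 271 and 299 before and 53.0, 68.2, 57.3 and 66.9 after culture (-2.24, SE 0.130, adjusted p = 4.85e-09). Mcm10, which takes part in origin firing, went from 261 ± 18.8 to 73.2 ± 5.48 (SD, n = 5 and n = 4), a fall of 3.56-fold (-1.82, adjusted p = 1.64e-08). Both sets of samples were tight and apart from each other.

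GINS is a ring of 4 proteins, and its genes did not move together. Gins1 was 85.7, 119, 121, 65.3 and 100.2 before and 37.1, 44.7, 27.3 and 40.3 after culture, 2.63-fold lower (-1.36, adjusted p = 1.09e-04). Gins2 was 171, 142, 155, 131 and 145 before and 66.2, 70.5, 35.5 and 62.3 after, 2.54-fold lower (-1.37, adjusted p = 3.68e-05). Of the exon bases of Gins2, 67.3% are shared with Gse1 on the other strand, which did not pass the test (-0.18). Gins4, which is not among the 43 and was looked up after its partners' values were seen, was 374 ± 50.4 before and 351 ± 48.7 after culture and did not pass (-0.094, adjusted p = 0.525).

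Gins3 was 95.2, 70.5, 99.8, 98.8 and 106 before culture and 922, 718, 974 and 959 after culture. Every cultured sample was many times above every uncultured one. The rise was 9.50-fold (3.24, SE 0.140, adjusted p = 2.80e-10), and it stayed between 3.14 and 3.34 when any 1 sample was left out. Per kilobase of transcript, Gins3 ranked 42 of 43 before culture (37.3 normalized counts per kb) and 4 after culture (355 per kb). In the annotation (GENCODE M21, build GRCm38) the gene spans chr8:95633453-95645060 on the plus strand. No exon base of it is shared with another gene, and none of its 50-base windows occurs in another gene.

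**Figure D2:**
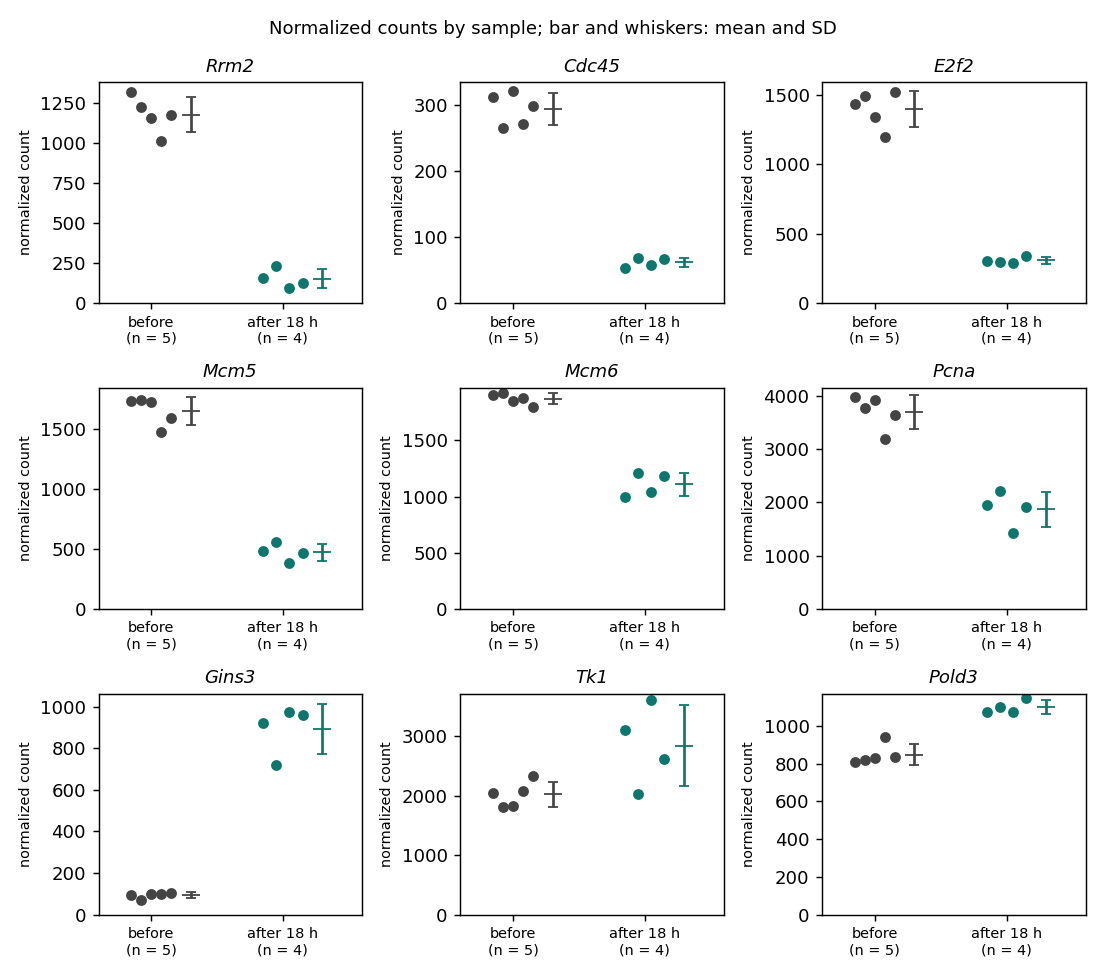
Normalized count (y axis, from 0) of 9 of the genes in each sample before (n = 5) and after culture (n = 4), with mean and SD beside the points. The groups are apart for Rrm2, Cdc45, E2f2, Mcm5, Mcm6, Pcna, Gins3 and Pold3, and overlap for Tk1.

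The cultured samples were not ordered alike in all 4 genes that rose. In Gins3 (718), Tk1 (2021) and Orc1 (164), after replicate 2 was the lowest cultured sample, and after replicate 3 was the highest (974, 3611 and 214). In Pold3 after replicate 3 was the lowest and after replicate 4 the highest (1149). In many genes that fell, these samples stood the other way round: in Rrm2 after replicate 2 was highest (234) and after replicate 3 lowest (94.6). This is a description of 4 samples, with no test.

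All 4 genes of polymerase alpha-primase, the enzyme that starts each new strand, fell by modest factors. Pola1, the catalytic subunit, went from 634 ± 52.2 (SD, n = 5) to 283 ± 21.0 (SD, n = 4), 2.24-fold lower (-1.16, adjusted p = 1.25e-07). Pola2, its accessory subunit, went from 610.1 ± 54.8 to 379 ± 27.7, 1.61-fold lower (-0.68, adjusted p = 2.54e-05). The primase genes Prim1 (241 ± 20.6 to 104 ± 18.6, 2.32-fold) and Prim2 (393 ± 48.4 to 220.1 ± 37.9, 1.79-fold) fell too. No sample of one group reached the other in any of the 4.

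The elongating polymerases split. Pole, the catalytic subunit of polymerase epsilon, was 935, 1022, 895, 908 and 831 before and 304, 315, 261 and 277 after culture, 3.17-fold lower (-1.66, SE 0.0911, adjusted p = 2.78e-09). Pold1, the catalytic subunit of polymerase delta, was 1290.2, 1110.0, 1119, 909.8 and 1172 before and 723, 709.6, 638 and 659.9 after. That is a 1.64-fold fall (-0.71, adjusted p = 2.36e-05), which the GC/length correction turned to 0.062 (adjusted p = 0.467). Pold3, an accessory subunit of polymerase delta that also serves in break-induced repair synthesis, was 807, 818, 828, 942 and 832 before and 1071, 1100.1, 1071 and 1149 after. The groups did not overlap, and the rise was 1.30-fold (0.38, SE 0.0735, adjusted p = 4.57e-04).

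Pcna, the sliding clamp, was 3970.5, 3766, 3927, 3188 and 3643 before and 1946, 2208, 1416 and 1916 after culture. It fell 1.98-fold (SE 0.114 on the log2 scale, adjusted p = 4.11e-06) and still ranked first of the 43 genes per kilobase in both groups. Of its 50-base windows 31.8% also occur elsewhere, mostly in Pcna-ps2, so its count is uncertain. Rpa2, a subunit of the single-strand binding protein, went from 503 ± 28.6 to 158 ± 29.7, 3.18-fold lower (-1.68, adjusted p = 5.43e-08). Its partners, which are not among the 43, moved less. Rpa1 was lower (-0.38), and Rpa3 did not pass (0.0056, limma adjusted p = 0.972).

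The clamp loader genes moved little. Rfc3 was 173, 168, 168, 242 and 227 before and 194, 202, 175 and 201 after culture, a change of -0.0058 (95% interval -0.31 to 0.30, adjusted p = 0.974). Rfc4 was 143, 110.1, 138, 159 and 118 before and 143, 144, 143 and 145 after, a change of 0.12 (-0.18 to 0.41, adjusted p = 0.460). In both the cultured samples lay inside the uncultured range. For the counts as given, the intervals leave out a fall as large as that of any MCM gene. With quantile normalization Rfc4 passed (0.32, adjusted p = 0.0478). Rfc5 fell 1.27-fold, from 669 ± 11.3 to 528 ± 40.9 (-0.34, adjusted p = 0.00171), and did not pass with GC/length correction (-0.063, adjusted p = 0.468). Rfc4 shares 12.7% of its exon bases with Eif4a2 on the other strand, which had far higher counts (4850 before and 5168 after culture). Rfc5 shares 10.7% with Wsb2 on the other strand, which rose (0.74). Reads of these pairs may be mixed, and their part in the clamp loader values was not tested.

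Both genes that finish the lagging strand fell. Lig1, the ligase that seals the nicks, went from 949 ± 73.8 to 331 ± 40.4 (SD, n = 5 and n = 4), 2.86-fold lower (-1.52, adjusted p = 1.48e-08). Fen1, the flap nuclease, was 194, 225, 208, 165 and 226 before and 89.2, 109, 81.9 and 122 after culture, 2.02-fold lower (-1.02, adjusted p = 5.32e-05). With GC/length correction its change was -0.67. Of the exon bases of Fen1, 78.8% are shared with the antisense gene Gm10143, which was low in both groups (30.8 and 22.2).

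Of the 5 genes that supply nucleotides, 4 fell and Tk1 rose. Rrm2, the small subunit of ribonucleotide reductase that is made in S phase, had the largest fall of the 43 genes. It was 1317, 1225, 1152, 1013 and 1176 before and 156, 234, 94.6 and 124 after culture, 7.74-fold lower (-3.02, SE 0.198, adjusted p = 1.58e-08). The highest cultured sample (234) lay far below the lowest uncultured one (1013). Per kilobase Rrm2 ranked 5 of 43 before and 24 after culture. The gene lies at chr12:24708241-24714146 on the plus strand (GRCm38), and 6.48% of its 50-base windows also occur elsewhere. Rrm1, the large subunit, fell less, from 1739.5 ± 51.1 to 773 ± 92.6 (2.25-fold). Dut, which clears dUTP (322 ± 32.1 to 103 ± 17.8, 3.13-fold), and Tyms, which makes dTMP from dUMP (398 ± 45.7 to 173 ± 22.8, 2.30-fold), fell as well.

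Tk1, the salvage enzyme that phosphorylates thymidine, was 2052, 1809, 1823, 2083 and 2325 before and 3096, 2021, 3611 and 2609.9 after culture. After replicate 2 lay within the uncultured range and the other 3 above it. The rise was 1.40-fold (0.46, SE 0.140, adjusted p = 0.00963). Leaving out 1 sample gave values of 0.34 to 0.62 and adjusted p up to 0.0357, and the GC/length correction gave 0.71. Tk1 ranked second of the 43 genes per kilobase in both groups.

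The genes that restore chromatin behind the fork fell together. Chaf1a and Chaf1b encode the large and middle subunits of CAF-1, which places histones on new DNA. Chaf1a was 499, 533, 513, 416 and 528 before and 131, 163, 123 and 92.0 after culture, 3.92-fold lower (-1.98, SE 0.150, adjusted p = 6.46e-08). Of its exon bases 52.5% are shared with Ubxn6 on the other strand, which did not pass (-0.066). Chaf1b went from 327 ± 39.2 to 118 ± 13.7 (2.77-fold). Uhrf1, which brings the maintenance DNA methyltransferase to new DNA, went from 1642 ± 93.0 to 503 ± 77.0 (3.26-fold), with 18.9% of its windows also found elsewhere.

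Among regulators of the G1/S step, both E2F genes fell and the cyclin E genes differed. E2f2 was 1439.7, 1492, 1341, 1200.2 and 1523 before and 305, 297, 286 and 341 after culture, 4.55-fold lower (-2.18, SE 0.0918, adjusted p = 2.24e-10). E2f1 was 645, 658, 761, 533 and 553 before and 264, 362, 172 and 241 after, 2.42-fold lower (-1.31, adjusted p = 2.01e-05), or -0.72 with GC/length correction. Both encode activator E2F proteins, and in both the groups were apart.

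Cyclin E drives Cdk2 at the start of S phase. Ccne1 was 262, 230.2, 285, 240.2 and 239.9 before and 109.5, 130.4, 134 and 88.9 after culture, 2.17-fold lower (-1.13, adjusted p = 9.35e-06). Ccne2 was 186, 171, 209.8, 215 and 158 before and 148, 174, 196 and 148 after. The ranges overlapped, and the change of -0.17 (95% interval -0.47 to 0.13) did not pass (adjusted p = 0.283). It passed with GC/length correction (-0.78, adjusted p = 1.28e-04) and was 0.030 with quantile normalization. Of the exon bases of Ccne2, 17.4% are shared with Ints8 on the other strand, which rose (0.92). Both repair genes fell: Brca1, of homologous recombination, from 417 ± 41.9 to 225 ± 20.1 (1.86-fold), and Exo1, a nuclease of resection and mismatch repair, from 116 ± 14.3 to 46.5 ± 19.3 (2.49-fold).

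Ratios of related genes within each sample were compared to test whether partners changed by different amounts. For 11 pairs the log2 ratio was tested by an exact two-sided permutation test over the 9 samples, whose smallest p is 0.0159. In 10 pairs the groups did not overlap and the ratio changed at that smallest p (adjusted over the 11 pairs, 0.0175). Rrm1 over Rrm2 went from 0.57 ± 0.164 to 2.41 ± 0.396 (SD), a difference of 1.84. Rrm2b, the p53-inducible small subunit of the same enzyme, over Rrm2 went from -1.53 to 2.26, a difference of 3.80, the largest of the 11. Tk1 over Tyms went from 2.34 to 4.00 and Tk1 over Rrm2 from 0.78 to 4.26, so Tk1 moved apart from both genes. Some pairs set a gene called higher against one called lower: Tk1 with Tyms or Rrm2, Rrm2b with Rrm2, and Pold3 with Pold1. For these, the changed ratio restates the changes of the single genes and is no further evidence.

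Pold1 over Pold3 fell by 1.08, Ccne1 over Ccne2 by 0.95, Chaf1a over Chaf1b by 0.52, Cdt1 over its inhibitor Gmnn (geminin) by 0.51 and Pola1 over Pola2 by 0.48. E2f1 over E2f2 rose by 0.87. Prim1 over Prim2 did not pass (a change of -0.38, p = 0.0952 by the exact permutation test), except without after replicate 3 (-0.54, adjusted p = 0.0357). With GC/length correction 3 pairs no longer passed: Ccne1 over Ccne2 (-0.068), Chaf1a over Chaf1b (-0.18) and Cdt1 over Gmnn (-0.037). In the same setting Pold1 over Pold3 fell by 0.39. Chaf1a over Chaf1b was -0.32 without after replicate 4.

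**Figure D3:**
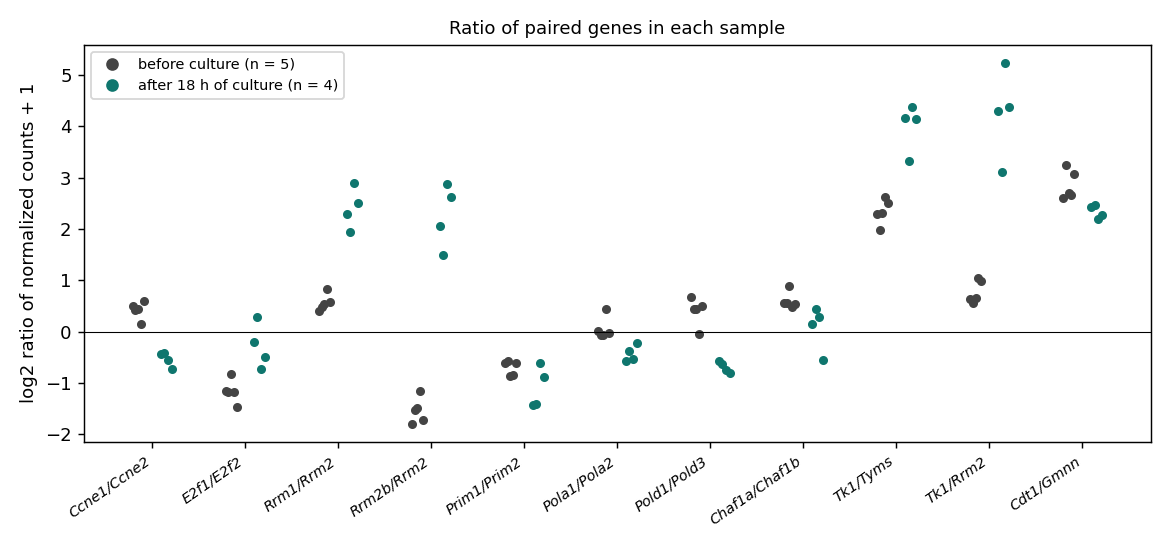
Log2 ratio of the normalized counts (+ 1) of 11 gene pairs in each sample, before (n = 5) and after culture (n = 4). The ratio Rrm2b/Rrm2 shifts most, by 3.80, the groups of Prim1/Prim2 overlap, and those of the other 10 pairs do not.

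Other genes of the same machinery, 85 in number, changed in both directions. All were tested, and 47 fell (beside 34.6% of all tested genes), 19 rose (beside 34.2%) and 19 did not pass, with a median log2 fold change of -0.31 and a range of -3.26 to 1.07. Among other licensing and firing genes 6 of 13 fell and 4 rose, not far from those shares. The 4 were the remaining core subunits of the origin recognition complex: Orc5 (245 ± 19.6 to 504 ± 56.9, 1.03), Orc3 (878 ± 108 to 1509 ± 172, 0.78), Orc2 (426 ± 56.0 to 708 ± 56.9, 0.74) and Orc4 (801 ± 85.1 to 1216 ± 166, 0.60), given as log2 fold changes. Of the 6 subunits only Orc6 fell. With GC/length correction Orc5 and Orc3 still rose (0.55 and 0.28), and Orc4 did not pass (0.062, adjusted p = 0.525). Ticrr, which helps to recruit Cdc45, went from 451 ± 36.7 to 55.0 ± 10.6 (8.19-fold lower).

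Of 21 other fork genes 15 fell (beside 34.6% of all tested genes) and 2 rose (beside 34.2%). The fork protection genes Timeless (1654 ± 174 to 185 ± 6.25, 8.92-fold lower) and Clspn (418 ± 41.7 to 44.1 ± 13.3, 9.47-fold lower) and the nuclease gene Dna2 (2583 ± 166 to 576 ± 37.8, 4.48-fold lower) fell by more than most of the 43. Rnaseh2b (0.92), a subunit of RNase H2, and Pole2 (0.62), an accessory subunit of polymerase epsilon, rose. Each of these 2 stood beside a partner that fell: Rnaseh2a by 0.39 and Pole by 1.66.

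Of 10 other nucleotide supply genes 6 rose (beside 34.2% of all tested genes) and 2 fell (beside 34.6%). Rrm2b rose from 405 ± 38.0 to 695 ± 51.8 (0.78), Samhd1, which breaks down dNTPs, from 10071 ± 1149 to 16154 ± 518 (0.69), and Cmpk1 by 0.54. The GC/length correction gave 0.39 for Rrm2b and 0.094 for Cmpk1, which then did not pass. Dck, a salvage kinase, fell by 0.44 with overlapping groups. It was -0.69 with GC/length correction. Among 5 other histone supply and chromatin copying genes, the chaperone gene Asf1a rose (1.07, or 0.53 with GC/length correction) while Asf1b fell by 2.35, Nasp by 0.70 and Slbp by 0.48. Nasp was -1.18 with GC/length correction.

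Of 27 other G1/S regulators 16 fell (beside 34.6% of all tested genes) and 5 rose (beside 34.2%). The 5 were Rb1, Rbl1, Rbl2, E2f6 and Skp2. Ccnd1 (cyclin D1) went from 4106 ± 285 to 447 ± 4.21, 9.18-fold lower, Ccna2 (cyclin A2) from 1092 ± 43.9 to 158 ± 23.6, 6.89-fold lower, and Cdkn2c, an inhibitor of Cdk4 and Cdk6, fell 5.18-fold. The retinoblastoma family genes Rb1 (0.63), Rbl1 (0.60) and Rbl2 (0.52) rose. With GC/length correction Rb1 was 0.34 and Rbl1 0.37. Of the 8 E2F genes 4 fell, including the repressors E2f7 (-3.03) and E2f8 (-2.29), which were named after their values were seen, and 1 (E2f6) rose. Of 9 other repair genes 5 fell, Bard1 by 2.10 and Blm by 0.96 among them, and Brca2 rose (0.87), 1.89-fold.

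**Figure D4:**
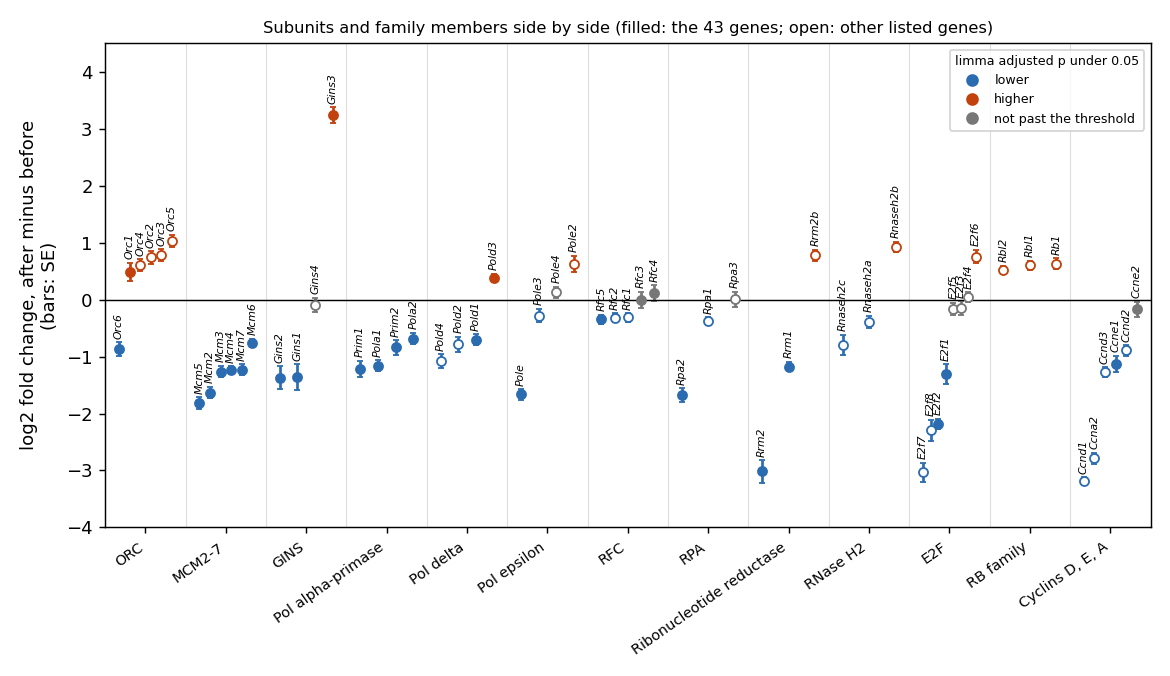
Log2 fold change (y axis, after minus before culture, bars for the standard error) of the subunits of 10 complexes and 3 gene families, with the 43 genes as filled points. MCM2-7 and polymerase alpha-primase hold only falls, while GINS spans -1.37 to 3.24.

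Across whole complexes, MCM2-7 (6 of 6 lower) and polymerase alpha-primase (4 of 4 lower) changed in 1 direction. The origin recognition complex held 5 rises and 1 fall, polymerase delta 3 falls and 1 rise, and polymerase epsilon and GINS each 2 falls, 1 rise and 1 gene that did not pass. In RFC 3 of 5 genes fell, none by more than 0.34. In RPA 2 of 3 genes fell and 1 did not pass, with changes from -1.68 to 0.0056. The distance between the highest and the lowest log2 fold change was 4.61 in GINS, 3.80 in ribonucleotide reductase and 0.54 in polymerase alpha-primase.

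Genes of G2 and mitosis, the phases after S phase, fell as well. All 15 listed genes fell, beside 34.6% of all tested genes, with a median log2 fold change of -2.67. Their summed count was 19172 to 21901 before and 2838 to 4725 after culture, 5.45-fold lower, whereas the sum of the 43 replication genes was 1.89-fold lower. The difference between the lists was not tested. After replicate 2 had the highest sum of the cultured samples (4725) and after replicate 3 the lowest (2838), as in the sum of the 43 genes (19743 and 18479).

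**Figure D5:**
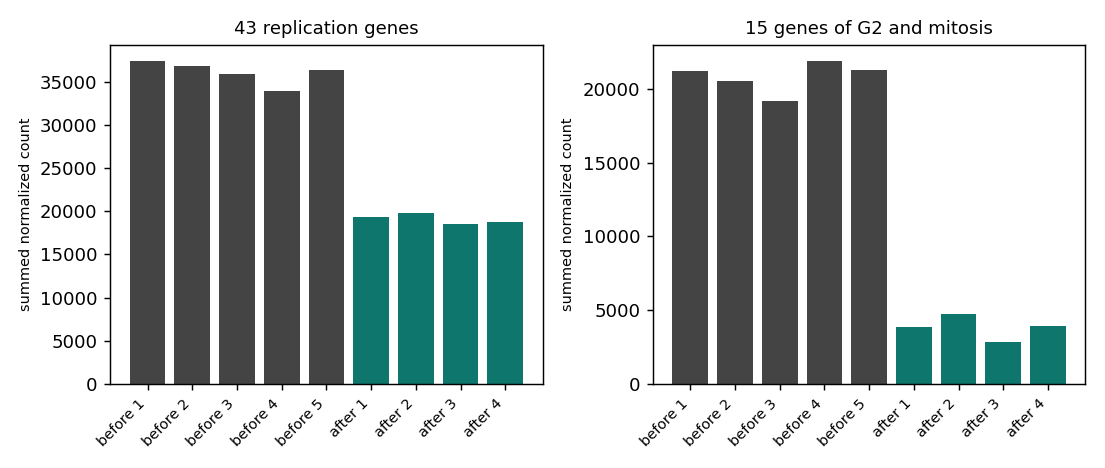
Summed normalized count (y axis from 0) of the 43 replication genes and of 15 genes of G2 and mitosis in each of the 9 samples. Both sums are lower in all 4 cultured samples, by 1.89-fold and 5.45-fold on the group means.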

How the data were processed

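RNA of 9 samples, 5 before and 4 after culture, was sequenced. The table that the authors deposited gives each gene's normalized count, a signal corrected for library size but not for gene length or GC content. The submitters' processing notes name DESeq2 and GRCm38, and the aligner, counter, annotation, strandedness and filters are not given in the sources used here. All values (100%, tolerance 1e-06) were whole multiples of 1 read's worth, so whole reads were recovered for count tests. Rows without a symbol (3782 of 49317) were left out. They held 6.43 to 10.9% of reads in the samples before culture and 3.87 to 5.46% after culture. Depth is that of named rows, 14.7 to 35.3 M reads.

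Samples were grouped by their treatment label. Named rows with a mean of at least 10 (18202 genes) entered limma 3.58.1 (R 4.3.3) as log2(value + 1), with group as the term, a mean-variance trend and two-sided tests, and p was adjusted by Benjamini-Hochberg over all of them, at a threshold of 0.05. Fold changes on this scale understate the change of low genes. Folds in the text are ratios of group means of normalized counts. Counts per kilobase used the longest transcript of GENCODE M21. The fitting script was tested on simulated data.

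Alternatives were pseudocounts of 0.5 and 8, no minimum, a minimum of 50, upper quartile, quantile and TMM scaling, edgeR 4.0.16 and DESeq2 1.42.0 on recovered reads, replicate blocks, a smooth correction of each sample for transcript GC share and length (GC/length correction, mgcv 1.9.3, values for 96.5% of tested genes), and each sample left out. The pair ratios under that correction were added after seeing the data.

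The 43 genes and all lists were chosen with earlier results of these data known. Any of the 43 could be named. Of the other lists, up to 3 rising and 3 falling genes by smallest adjusted p were named, with the genes of the pairs. Orc4, Gins4, Rpa1, Rpa3, E2f6, E2f7, E2f8, Skp2, Rnaseh2a, Wdfy4, Flt3, Batf3, Zbtb46 and the overlapping genes were named after their values were seen. Same-numbered samples were not treated as pairs, since the labels do not say that they share mice. Some genes on these lists are counted but not reported here by name.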

Additional observations from a re-analysis of the deposited data

Results flagged for a closer look

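The spread within each group was checked for a single sample far from the others, in 86 groups of values (43 genes in 2 groups). Chance flags about 1 in 20 such groups, and 3 were found. In Mcm7, before replicate 2 (1730.0) stood above the next sample (1503), a gap of 0.718 of the group's range. In Pola2, after replicate 4 (338) stood below the next (389), a gap of 0.835 of the range. In Pold3, before replicate 4 (942) stood above the next (832), a gap of 0.815 of the range, and it was still below all 4 cultured samples.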

How the results depend on the processing

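Over all alternatives 35 or 36 of the 43 genes fell and 4 or 5 rose, and the median log2 fold change ran from -1.25 to -1.14. Leaving out 1 sample gave 36 falls and 4 rises each time, a median of -1.25 to -1.16, and 10 or 11 changed pairs. The GC/length correction moved the median of all genes to 0.13. It turned Pold1 to 0.062, Rfc4 to -0.15 and Gins4 to 0.073, and ended the calls of Rfc5, Cmpk1 and Orc4. It gave -1.24 for Dbf4, -1.18 for Nasp, -0.69 for Dck, 0.37 for Rbl1 and 0.34 for Rb1. Quantile normalization gave 0.18 for Rfc3, 0.030 for Ccne2 and 0.031 for Gins4, and ended the call of Gmnn (-0.31, adjusted p = 0.0923). Rfc3 was 0.023 with upper quartile scaling, 0.052 with a replicate block on title numbers, and -0.056 to 0.075 with 1 sample left out. The cause was not tested. Samples sharing a title number did not deviate together (correlations of -0.21 to 0.08). Numbers in the library names gave 0.04 to 0.35, and each of the 4 cultured samples correlated best with its own number. A replicate block on either numbering gave 36 falls and 4 rises, and genes called in the whole table numbered 11656 (titles) and 12865 (library names) against 12524. Sign flips over the 4 title-number pairs, as a replicate block for the pair ratios, passed 0 pairs (smallest p 0.125), since 4 pairs cannot reach 0.05. That limit holds for the library-name numbers too, over which no sign flips were run. Low counts limit precision: Exo1 and Gins1, both under 50 on average after culture, had the widest standard errors of the 43 (0.242 and 0.222).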
